A study of Homo sapiens with 12 samples.

Results

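The genes described here are 9 components and regulators of the complement system, out of 60666 genes in the count table. They were chosen by name, with earlier results of these data known: the initiating proteases C1R and C1S, the central component C3, the alternative pathway protease CFB, the soluble regulators CFI and SERPING1, and the membrane regulators CD46, CD55 and CD59. RNA sequencing was performed on HT1376, a human bladder cancer cell line, to examine how loss of the transcription factor FOXP3 relates to the response to IFNγ. The 4 groups held 3 libraries each, numbered 11, 12 and 13. HT1376 CT, called wild type in the labels, was a clonal CRISPR control line made with a guide RNA against luciferase, and HT1376 FOXP3 KO was a single-cell clone made with guide RNAs against exon 2 of FOXP3. Each line was left untreated or was given 100 ng/mL IFNγ for 48 hours. As each line was 1 clone, loss of FOXP3 and other differences between the clones cannot be told apart. Nothing in the labels says that the libraries of a group came from separate cultures, so p-values measure the spread between these libraries, which may be technical.

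Complement is a cascade of proteins of blood and tissue fluid that tags cells and microbes for removal and can pierce their membranes. In the classical pathway the proteases C1r and C1s, bound to C1q, cleave C4 and C2. The resulting convertase cleaves C3, and factor B forms a further convertase that amplifies C3 cleavage. Host cells hold the cascade in check with C1 inhibitor, the SERPING1 product, which inactivates C1r and C1s, with factor I, which cleaves C3b and C4b, and with CD46, CD55 and CD59 on the cell surface. The liver makes most of the complement of plasma, and epithelial cells are known to make some components locally, in particular under interferons.

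The libraries held 4490684 to 39270042 counts, and the shallowest was HT1376 CT with IFNγ replicate 12. The FOXP3 count was 0 in 8 libraries and never above 3, so it could not check the labels. All 10 genes of a list of well-known IFNγ targets were higher with IFNγ in both lines. Their median log2 fold change was 7.27 in HT1376 CT and 3.98 in HT1376 FOXP3 KO. Of 16 urothelial and epithelial markers, 11 were above 1 normalized CPM (counts scaled to a common library size by TMM) in each group, whereas UPK3A was at 0 in every library. Mitochondrial genes held 3.10% to 3.63% of the counts in HT1376 CT libraries and 4.08% to 5.11% in HT1376 FOXP3 KO libraries. Among 10 blood and immune markers, CSF1R was at 1.35 to 2.54 CPM in HT1376 CT and at 101 to 232 CPM in HT1376 FOXP3 KO, where the sum of the list was 102 to 233 CPM. Of the 6 tested between untreated lines, 1 (CSF1R) was higher and 1 (CD3E) lower in HT1376 FOXP3 KO. Their median log2 difference was -2.13, so the sum reflects CSF1R and not the list as a whole. Endothelial markers summed to at most 2.07 CPM and hepatocyte markers to at most 7.85 CPM in any library. Of 6 fibroblast markers, 5 were higher in HT1376 FOXP3 KO and 1, COL1A1, was lower, and their summed level was 46.1 to 65.8 CPM in HT1376 CT and 479 to 731 CPM in HT1376 FOXP3 KO. With IFNγ the same sum was 24.9 to 34.4 CPM and 450 to 666 CPM. The part of these line differences in the results below was not tested.

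Promoter sequences were examined for letters that interferon-activated and forkhead factors are known to bind, because several soluble members rose with IFNγ. RefSeq promoters on GRCh38.p14, from 250 bases before to 50 bases after a start, were given for C1R, CFB, CFI, CD46, CD55 and CD59. C1S, C3 and SERPING1 were not examined. The gamma-activated site TTCNNNGAA was searched with the interferon-stimulated response element (GAAA, any 2 bases, GAAA) and the forkhead motifs TAAACA and TGTTTAC, on both strands. The reverse complement of TGTTTAC contains TAAACA, so these forkhead motifs overlap. The lines below give each match in capitals with 10 bases on either side, 5′ to 3′ on the strand of the gene.
CFB, interferon-stimulated response element on the opposite strand, chr6:31945945-31945974, plus strand: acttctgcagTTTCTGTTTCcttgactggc
CFB, gamma-activated site, chr6:31945993-31946021, plus strand: cgcttggatgTTCCGGGAAagtgatgtgg
C1R, gamma-activated site, chr12:7091961-7091989, minus strand: gccagtcctaTTCCTGGAAggggagggga
C1R, forkhead motif on the opposite strand, chr12:7092539-7092564, minus strand: tcagatctttTGTTTAtgcaaatagt
CD59, gamma-activated site, chr11:33736589-33736617, minus strand: ccacccggccTTCTCAGAAcctgggccag

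CFB held both interferon motifs, with first bases at -140 and -92 from its start. C1R had 2 listed promoters, 1 with the gamma-activated site at -86 and the other with the forkhead motif at -109. The CD59 site was the same stretch in 2 of its 4 promoters, at -128 and -184 from their starts. CFI, CD46 and CD55 had no match in the windows searched. Among all 35116 promoters, 7.66% held TTCNNNGAA, 3.57% held the interferon-stimulated response element, 12.3% held TAAACA and 3.42% held TGTTTAC. These matches are descriptions of the letters and say nothing of binding in HT1376 cells.

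Levels were compared between genes per kb of the canonical transcript. The membrane regulators were the most abundant members in untreated cells of both lines. In HT1376 CT, mean levels were 95.2 ± 4.27 CPM per kb for CD46, 90.3 ± 12.8 for CD55 and 72.5 ± 5.51 for CD59 (SD, n = 3). The order went on with C3 at 2.50, C1R at 0.351, SERPING1 at 0.247, C1S at 0.244 and CFB at 0.0336 CPM per kb. Libraries overlapped between CD46 and CD55, between CD55 and CD59, between C1R and SERPING1, and between SERPING1 and C1S, and the other neighbours in this order did not overlap. In HT1376 CT with IFNγ, C1S stood at 60.1 ± 15 CPM per kb, within the range of CD55 (46.3 to 83.6) and CD59 (58.3 to 65.3). SERPING1 followed at 41.7 ± 1.07, C1R at 13.8 ± 1.77, C3 at 9.78 ± 6.89 and CFB at 0.741 ± 0.379 CPM per kb, and of these only C1R and C3 overlapped.

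HT1376 FOXP3 KO had another order, led by CD55 at 151 ± 15.9 CPM per kb, then CD46 at 110 ± 13.2 and CD59 at 57.3 ± 7.96. SERPING1 came next at 13.5 ± 3.15, ahead of C3 at 3.22 ± 0.444, and no library overlapped between neighbours down to C1R at 0.625 ± 0.148. C1S at 0.274 and CFB at 0.144 CPM per kb overlapped with their neighbours. With IFNγ this line kept CD55 (145) and CD46 (104) first, and the libraries of CD59 (46.7), SERPING1 (42.3) and C1S (32.9 CPM per kb) overlapped each with the next. C1R at 14.4, C3 at 8.99 and CFB at 0.525 CPM per kb did not overlap with a neighbour. The order among the membrane regulators depended on the length used: per kb of all annotated exons CD59 led in HT1376 CT at 52.0, with CD55 at 22.8 and CD46 at 20.4 CPM per kb. By that length CD59 (41) also led CD55 (38.1 CPM per kb) in untreated HT1376 FOXP3 KO, so both untreated lines had the same leader. In HT1376 CT with IFNγ, C1S was then at 19.4, beside CD55 at 16.6 and CD59 at 44.3 CPM per kb.

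Summed over the members, the membrane regulators made up a median of 98.7% of the level per kb in HT1376 CT libraries (98.1% to 99.3%). This share was 61.6% in HT1376 CT with IFNγ (59.5% to 68.4%), 95% in HT1376 FOXP3 KO (93.3% to 95.7%) and 76.6% in HT1376 FOXP3 KO with IFNγ (71.3% to 76.8%). The ranges of the 4 groups did not overlap. The summed level itself was 246 to 279 CPM per kb in HT1376 CT and 367 to 422 CPM per kb in HT1376 FOXP3 KO with IFNγ.

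**Figure D1:**
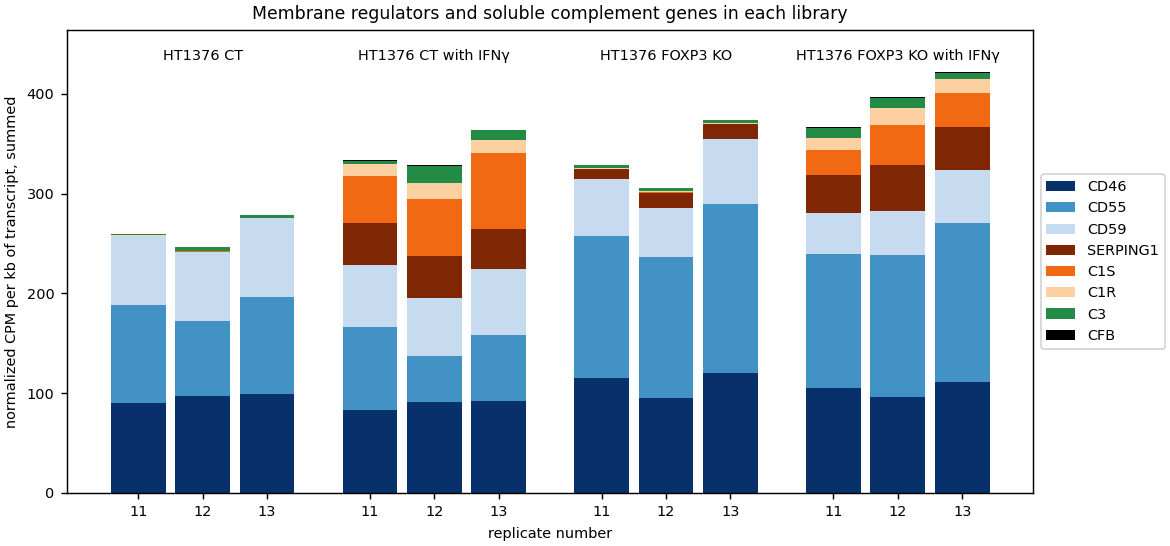
Stacked bars give the level of each complement gene in normalized CPM per kb of canonical transcript (vertical axis, from 0) in each of the 12 libraries, grouped by line and treatment. Membrane regulators in blue fill nearly the whole bar in untreated libraries, and C1S, SERPING1 and C1R take a visible share in every IFNγ library.

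The next comparisons asked which members responded to IFNγ in each line. Adjusted p-values are from edgeR's quasi-likelihood test with Benjamini-Hochberg adjustment over all genes tested, and fold changes are on the log2 scale. In HT1376 CT, 4 of the 8 members tested were higher with IFNγ and 0 were lower, beside 3.53% higher and 1.82% lower among all genes tested. HT1376 FOXP3 KO also had 4 members higher and 0 lower, beside 0.978% and 0.00414%. The members and gene lists were chosen with earlier results of these data known, so the shares called may follow in part from the choice. The median log2 fold change of the 8 members was 3.18 in HT1376 CT and 1.59 in HT1376 FOXP3 KO, with medians over all genes of -0.02 and -0.01. Without CFB, whose untreated HT1376 CT counts were 1 or 2, the member medians were 1.97 and 1.5. Both comparisons are separate pairs of groups, whereas each group also enters a comparison of the lines. Libraries with the same number deviated together within each line, so a fit with the number as a block is given wherever it changed a call. Under that block the members called came to 7 in HT1376 CT and 6 in HT1376 FOXP3 KO. The block also raised the calls over all genes, to 4530 of 24416 tested in HT1376 CT and to 1334 of 24131 in HT1376 FOXP3 KO.

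C1R and C1S, the proteases that start the classical pathway, lie near each other on chromosome 12. C1R (ENSG00000159403) spans chr12:7080214-7092540 on the minus strand of GRCh38, and C1S (ENSG00000182326) spans chr12:6988259-7071032 on the plus strand, 9.18 kb away. C1R was at 0.819, 1.03 and 0.767 CPM in HT1376 CT replicates 11, 12 and 13, and at 30.3, 39.0 and 33.6 CPM with IFNγ. HT1376 FOXP3 KO libraries had 1.97, 1.43 and 1.27 CPM, and 31.2, 41.2 and 35.2 CPM with IFNγ. Every IFNγ library was far above every untreated library, and the IFNγ groups of both lines overlapped. The log2 fold change with IFNγ was 5.35 (SE 0.22, 40.7-fold, adjusted p = 3.58e-08 by edgeR's quasi-likelihood test) in HT1376 CT and 4.51 (SE 0.22, 22.8-fold, adjusted p = 5.46e-06) in HT1376 FOXP3 KO. The C1R response of HT1376 FOXP3 KO minus that of HT1376 CT was -0.84 (SE 0.30, adjusted p = 0.683 by edgeR's interaction test). C1RL, a C1R-like protease gene, shares 11.6% of the exon bases of C1R on the same strand, so reads there are uncertain.

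C1S had the largest fitted IFNγ response of the members in both lines. Its levels were 0.644, 0.874 and 0.449 CPM in HT1376 CT and 125, 155 and 204 CPM with IFNγ. The HT1376 FOXP3 KO levels were 0.257, 1.43 and 0.518 CPM, and 67.2, 108 and 89.4 CPM with IFNγ. Treated and untreated libraries were well apart in both lines, and untreated libraries of the lines overlapped. The log2 fold change was 8.09 (SE 0.27, 273-fold, adjusted p = 6.99e-09 by edgeR) in HT1376 CT and 7.14 (SE 0.43, 141-fold, adjusted p = 2.13e-05) in HT1376 FOXP3 KO. The C1S responses of the lines differed by -0.95 (SE 0.59, adjusted p = 0.894 by edgeR's interaction test). Among all genes, C1S ranked as number 26 by log2 fold change in HT1376 CT and as number 15 in HT1376 FOXP3 KO. The ratio of C1S to C1R per kb was 0.544 to 0.785 in HT1376 CT libraries and 3.68 to 5.65 with IFNγ. The ratio in HT1376 FOXP3 KO was 0.121 to 0.928, and 2 to 2.43 with IFNγ.

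SERPING1, which encodes C1 inhibitor, was the member with the greatest difference between untreated lines. It (ENSG00000149131) spans chr11:57597387-57619171 on the plus strand. HT1376 CT libraries had 0.351, 0.397 and 0.608 CPM, from 6, 5 and 23 counts. HT1376 FOXP3 KO libraries had 18.0, 28.5 and 27.4 CPM, from 421, 320 and 476 counts, so even the lowest was far above every HT1376 CT library. With IFNγ the levels were 78.1, 76.6 and 74.2 CPM in HT1376 CT and 68.9, 83.7 and 79.6 CPM in HT1376 FOXP3 KO, and these groups overlapped. In bulk RNA, fewer cells that express a gene and less RNA per cell cannot be told apart.

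IFNγ raised SERPING1 by 7.28 on the log2 scale in HT1376 CT (SE 0.20, 156-fold, adjusted p = 1.74e-09 by edgeR) and by 1.67 in HT1376 FOXP3 KO (SE 0.18, 3.18-fold, adjusted p = 0.00134). Libraries of the same number changed by 7.80, 7.59 and 6.93 in HT1376 CT and by 1.93, 1.55 and 1.54 in HT1376 FOXP3 KO. The difference between these responses, tested as an interaction, was -5.62 (SE 0.29, adjusted p = 4.51e-08 by edgeR). SERPING1 was the 1 member past the threshold in that test, beside 0.108% of all genes in this direction and 0.00360% in the other. Dropping any 1 of the 12 libraries left this call in place, with differences from -5.96 to -5.40.

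**Figure D2:**
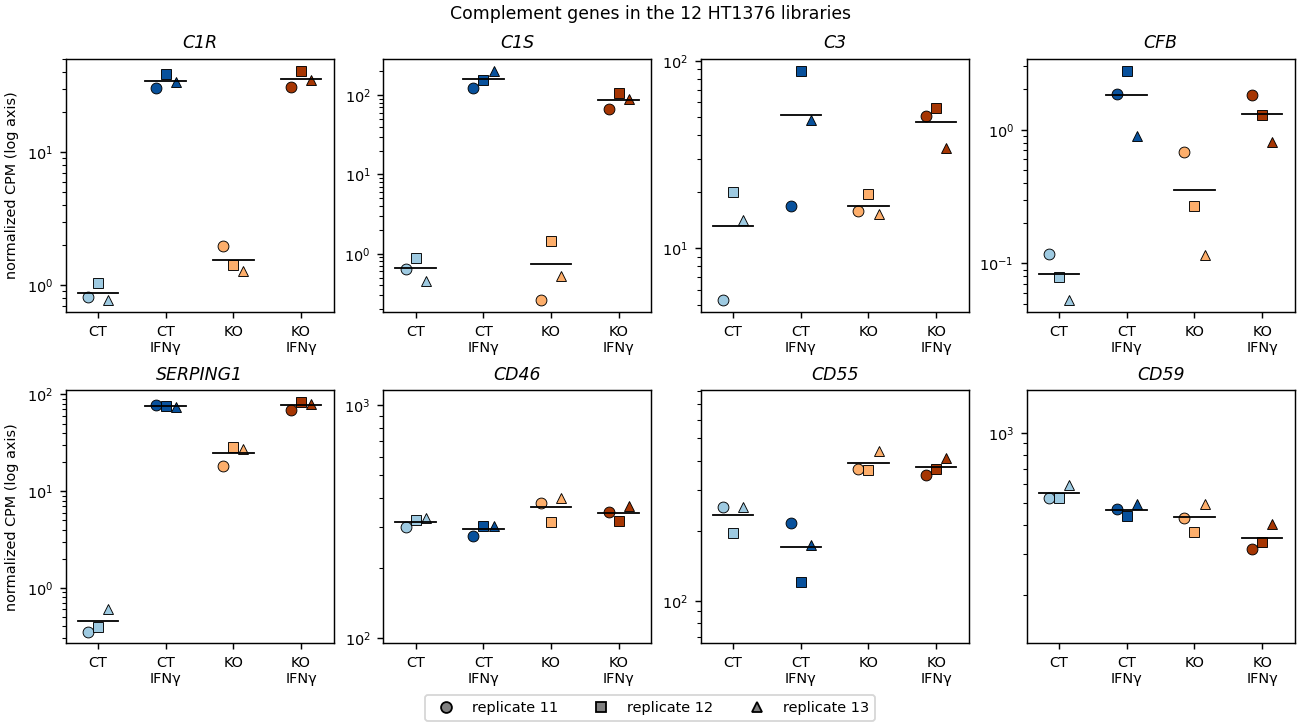
Each panel gives the normalized CPM of 1 complement gene (log axis) in the 12 libraries, with a symbol per replicate number and a horizontal line at the mean of each group; CT and KO are HT1376 CT and HT1376 FOXP3 KO. SERPING1 in untreated KO libraries (18.0 to 28.5 CPM) sits between untreated CT (0.351 to 0.608 CPM) and both IFNγ groups, whereas C1R and C1S lie between 0.257 and 1.97 CPM in both untreated groups.

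C3, the component on which all complement pathways converge, varied widely among the libraries of HT1376 CT. It (ENSG00000125730) spans chr19:6677704-6730562 on the minus strand. Levels were 5.27, 19.9 and 14.2 CPM in HT1376 CT and 16.7, 88.6 and 48.1 CPM with IFNγ. They were 15.7, 19.5 and 15.3 CPM in HT1376 FOXP3 KO and 50.5, 56.1 and 34.4 CPM with IFNγ. In HT1376 CT the groups overlapped because replicate 11 was low with and without IFNγ, whereas in HT1376 FOXP3 KO they did not overlap. C3 shares 11.7% of its exon bases on the same strand with a long noncoding RNA gene, so reads there are uncertain.

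Libraries of the same number nevertheless changed alike. The log2 changes of C3 were 1.67, 2.16 and 1.76 in HT1376 CT and 1.68, 1.52 and 1.17 in HT1376 FOXP3 KO. The fold change in HT1376 CT was 1.97 on the log2 scale (SE 0.53, adjusted p = 0.058 by edgeR) without the block, and 1.90 (adjusted p = 3.79e-49) with the replicate block. Adding the bias-adjusted deviance to the block gave an adjusted p of 3.35e-07. With few pairs of libraries, the size of p-values from fits with the block, here and below, is not a measure of certainty. Without the block, leaving out 1 library gave 1.35 (without the IFNγ replicate 12, adjusted p = 0.172) to 2.41 (without the IFNγ replicate 11, adjusted p = 0.0067), and the latter fit alone passed the threshold. HT1376 FOXP3 KO had a C3 log2 fold change of 1.5 (SE 0.21, 2.83-fold, adjusted p = 0.00832 by edgeR). This call was lost without HT1376 FOXP3 KO replicate 11 (1.45, adjusted p = 0.0731), without replicate 13 (1.42, adjusted p = 0.0739) and without replicate 11 of the IFNγ group (1.43, adjusted p = 0.0617). It was also lost with all 12 libraries in 1 fit (1.47, adjusted p = 0.352). The responses of the lines differed by -0.47 (SE 0.65, adjusted p = 0.966).

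CFB, the protease of the alternative pathway convertase, was low in all libraries. It (ENSG00000243649) spans chr6:31945650-31952086 on the plus strand. Untreated HT1376 CT libraries had 2, 1 and 2 counts (0.117, 0.0794 and 0.0529 CPM), and with IFNγ 19, 12 and 16 counts (1.84, 2.77 and 0.894 CPM). Untreated HT1376 FOXP3 KO libraries had 16, 3 and 2 counts (0.685, 0.268 and 0.115 CPM), and with IFNγ 27, 12 and 25 counts (1.81, 1.28 and 0.815 CPM). In each line every IFNγ library was above every untreated one. The ratio of summed counts per depth was 19.5 in HT1376 CT (95% interval 7.78 to 62.8, counting error only), and CFB was past the threshold there (adjusted p = 0.00556 by edgeR). In HT1376 FOXP3 KO the ratio was 2.88 (1.73 to 4.96), and the adjusted p was 0.714 without the block and 0.0256 with the replicate block. The CFB responses of the lines differed by -2.62 on the log2 scale (SE 1.02, adjusted p = 0.721 by edgeR's interaction test), which is not past the threshold. CFB shares 42.3% of its exon bases on the same strand with a readthrough gene that was at 0 counts, so reads there are uncertain.

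CFI, which encodes factor I, was at 0 counts in 11 of 12 libraries and at 1 count in HT1376 CT replicate 13. It (ENSG00000205403) spans chr4:109731008-109802150 on the minus strand. A count of 0 allows up to 3 counts, or 0.0793 to 0.692 CPM depending on the library, and CFI was not tested. CFI shares 29.4% of its exon bases on the same strand with another gene that was at 0 counts, so reads there are uncertain.

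**Figure D3:**
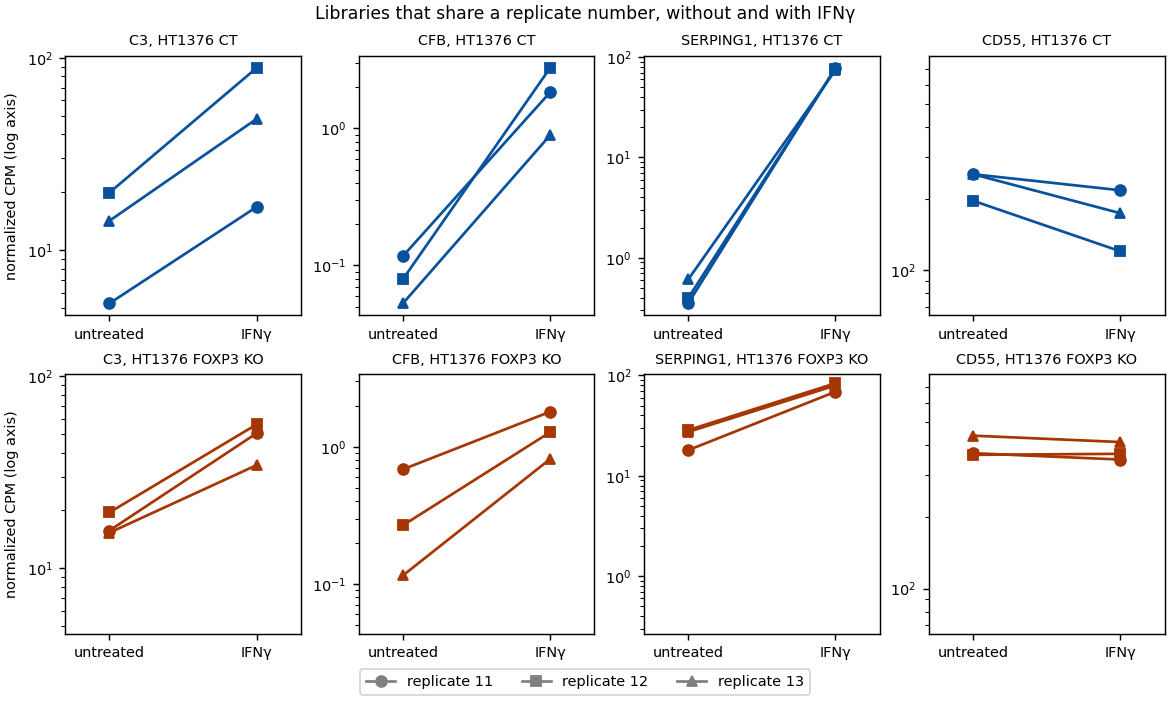
Lines join untreated and IFNγ libraries of the same replicate number for C3, CFB, SERPING1 and CD55 (normalized CPM, log axis), with HT1376 CT in the upper row and HT1376 FOXP3 KO in the lower row. The C3 lines of HT1376 CT run side by side from 5.27, 19.9 and 14.2 CPM, and the SERPING1 lines of HT1376 FOXP3 KO start at 18.0 to 28.5 CPM and rise less than those of HT1376 CT.

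In the main fits, which had no block, the membrane regulators were not past the threshold with IFNγ in either line. CD46, a cofactor for C3b cleavage by factor I, was at 300, 321 and 327 CPM in HT1376 CT and at 275, 301 and 304 CPM with IFNγ. The log2 difference was -0.08 (SE 0.10, adjusted p = 0.739 by edgeR). The difference in HT1376 FOXP3 KO was -0.07 (SE 0.10, adjusted p = 0.999). CD46 (ENSG00000117335, chr1:207752037-207795513, plus strand) shares 5.14% of its exon bases with the antisense gene MIR29B2CHG.

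CD55, which speeds the decay of C3 convertases, was at 253, 196 and 253 CPM in HT1376 CT and at 217, 120 and 173 CPM with IFNγ. It was lower with IFNγ in each of the 3 numbered pairs, by -0.22, -0.70 and -0.54 on the log2 scale, although the groups overlapped. The log2 difference was -0.43 (SE 0.18, adjusted p = 0.236 by edgeR), and -0.46 (adjusted p = 8.09e-09) with the replicate block. In HT1376 FOXP3 KO the pairs differed by -0.09, 0.01 and -0.09, and the fitted difference was -0.04 (SE 0.10, adjusted p = 0.999). The responses differed between the lines by 0.39 (SE 0.24, adjusted p = 0.894), and by 0.41 (adjusted p = 2.71e-04) with a replicate block within each line, an alternative added after the data were seen. CD55 (ENSG00000196352) spans chr1:207321519-207386804 on the plus strand.

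CD59, which blocks assembly of the membrane attack complex, was at 523, 526 and 597 CPM in HT1376 CT and at 468, 441 and 494 CPM with IFNγ, with no overlap. The log2 difference was -0.21 (SE 0.10, adjusted p = 0.291 by edgeR), and -0.20 (adjusted p = 0.00745) with the replicate block. In HT1376 FOXP3 KO, CD59 was at 432, 374 and 494 CPM untreated and at 317, 338 and 405 CPM with IFNγ, and the groups overlapped. The difference there was -0.28 (SE 0.12, adjusted p = 0.895 by edgeR), and -0.28 (adjusted p = 8.84e-06) with the replicate block. CD59 (ENSG00000085063) spans chr11:33703010-33736479 on the minus strand. It shares 5.96% of its exon bases on the same strand with another protein-coding gene, so reads there are uncertain.

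The lines were then compared at the same treatment. Among untreated libraries, 2 of 8 members were past the threshold and both were higher in HT1376 FOXP3 KO, beside 14.0% higher and 18.2% lower among all genes. A share of this size is near the background. The member median was 0.57 on the log2 scale (0.38 without CFB), and that of all genes was -0.02. SERPING1 was higher by 5.66 (SE 0.30, 50.6-fold, adjusted p = 2.21e-07 by edgeR), and its ratio of summed counts per depth was 46.5 (33.1 to 67.5). CD55 was at 370, 365 and 439 CPM in HT1376 FOXP3 KO, above all 3 HT1376 CT libraries, and the log2 difference was 0.76 (SE 0.13, 1.69-fold, adjusted p = 0.00101).

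The other members were not past the threshold in untreated cells, although some passed under an alternative. CD59 was lower in HT1376 FOXP3 KO by -0.32 (SE 0.12, adjusted p = 0.0585 by edgeR) and C1R higher by 0.88 (SE 0.40, adjusted p = 0.121), each without overlap between the groups. C1R passed with all 12 libraries in 1 fit (0.91, adjusted p = 0.0122), CFB with the bias-adjusted deviance (2.35, adjusted p = 0.0351) and CD59 without HT1376 FOXP3 KO replicate 13 (-0.37, adjusted p = 0.0337) and with no filter on low counts (-0.34, adjusted p = 0.0286). CD46 passed without HT1376 FOXP3 KO replicate 12 (0.35, adjusted p = 0.0209). CFB counts of 5 against 21 in all gave a ratio of 5.46 (2 to 18.5), with an adjusted p of 0.121. Replicate 11 held 16 of the 21 counts, and without it the fitted log2 difference was 1.21 (adjusted p = 0.501) in place of 2.16. CD46 differed by 0.23 (SE 0.11, adjusted p = 0.147), C3 by 0.38 (SE 0.36, adjusted p = 0.458) and C1S by 0.13 (SE 0.68, adjusted p = 0.906).

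Under IFNγ, HT1376 FOXP3 KO had 1 member higher and 2 members lower than HT1376 CT, beside 13.2% higher and 15.7% lower among all genes. The member median was 0.00 and that of all genes 0.02, and here too the share called is near the background. CD55, at 348, 368 and 412 CPM in HT1376 FOXP3 KO with IFNγ, was above every HT1376 CT library with IFNγ, by 1.19 on the log2 scale (SE 0.18, 2.28-fold, adjusted p = 4.94e-04 by edgeR). C1S was lower by -0.83 (SE 0.20, adjusted p = 0.0105), with no overlap. Without HT1376 CT with IFNγ replicate 13, which had the highest C1S level, the C1S difference was -0.61 (adjusted p = 0.0703). CD59 was lower by -0.37 (SE 0.11, adjusted p = 0.034), and this call was lost in 4 of 6 fits without 1 library (adjusted p from 0.0591 to 0.135) and with scaling by total counts (-0.28, adjusted p = 0.0853).

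SERPING1 differed between the lines under IFNγ by 0.06 (SE 0.12, adjusted p = 0.759 by edgeR), and its ratio of summed counts per depth was 1.02 (0.971 to 1.07). C1R differed by 0.11 (SE 0.17, adjusted p = 0.667), C3 by -0.06 (SE 0.44, adjusted p = 0.94), CFB by -0.37 (SE 0.56, adjusted p = 0.676) and CD46 by 0.28 (SE 0.11, adjusted p = 0.0819). The ratio of CD55 to CD59 per kb separated the lines in both states: it was 1.09 to 1.41 in HT1376 CT and 2.50 to 2.85 in HT1376 FOXP3 KO, and 0.795 to 1.35 against 2.98 to 3.21 with IFNγ.

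**Figure D4:**
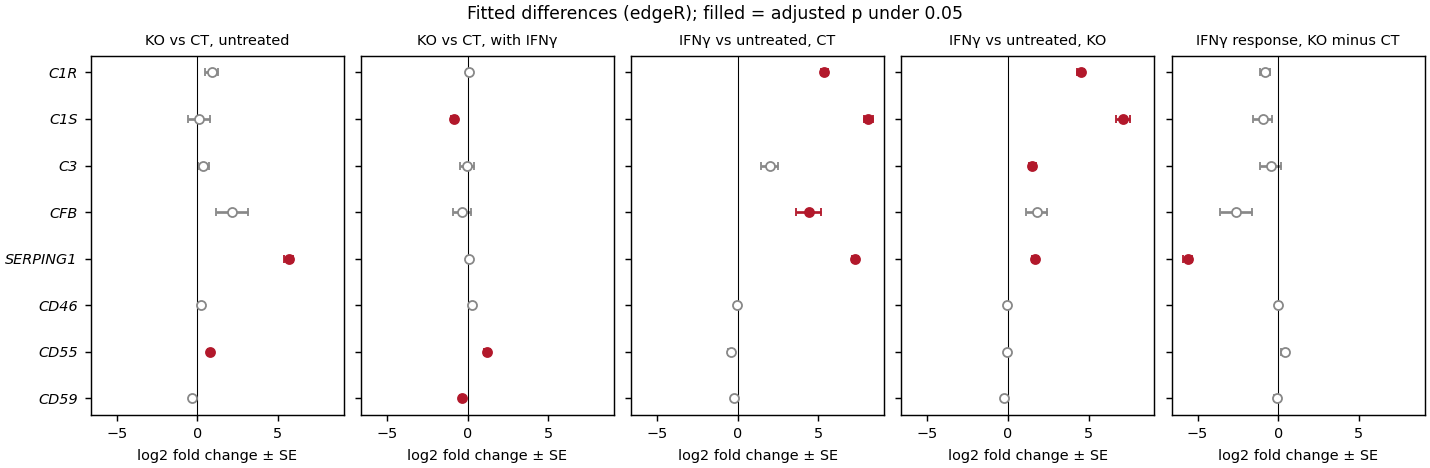
Points give the fitted log2 fold change and bars its SE for 8 complement genes in 5 comparisons, the last being the IFNγ response of KO minus that of CT; filled red points have an adjusted p under 0.05. C1R, C1S and SERPING1 are filled in both IFNγ comparisons, CD55 in both comparisons of the lines, and SERPING1 alone in the difference of responses (-5.62).

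The rest of the complement system was counted over a list of 50 other genes. Of these, 10 were at 0 in all libraries and 19 never exceeded 3 counts. With IFNγ in HT1376 CT, 3 of 28 tested were higher and 0 lower, beside 3.53% higher and 1.82% lower among all genes. They were C1RL by 1.48 (SE 0.17, adjusted p = 3.13e-04 by edgeR), C4A by 5.01 (SE 0.68, adjusted p = 8.78e-04) and C4B by 5.67 (SE 0.71, adjusted p = 4.79e-04). C4A and C4B encode near-identical forms of C4, the substrate of C1s, so how reads divide between them is uncertain. In HT1376 FOXP3 KO, 1 of 19 was higher and 0 lower, beside 0.978% and 0.00414% of all genes. It was C4A, by 3.49 (SE 0.55, adjusted p = 0.017), whereas C4B differed by 3.44 (SE 0.72, adjusted p = 0.0829). The C1q genes C1QA, C1QB and C1QC, which encode the recognition part of the C1 complex, had at most 1 count in any library and were not tested.

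Between untreated lines, 27 of the other genes were tested, and HT1376 FOXP3 KO had 4 of them higher and 6 of them lower, near the 14.0% and 18.2% of all genes. Those named next were among the differences of greatest size, in genes above 3 counts in both groups. C7, a component of the membrane attack complex, was lower by -5.58 (SE 0.62, adjusted p = 5.31e-05 by edgeR). C5AR1, a receptor for C5a, was higher by 1.75 (SE 0.60, adjusted p = 0.0451), and ITGAM, a subunit of complement receptor 3, was lower by -1.70 (SE 0.57, adjusted p = 0.0414). Under IFNγ, 3 of 23 were higher and 6 lower, beside 13.2% and 15.7% of all genes. CFHR3 differed by -2.91 (SE 0.98, adjusted p = 0.0454), C4B by -1.84 (SE 0.37, adjusted p = 0.00328) and CLU, which encodes the terminal pathway inhibitor clusterin, by 1.70 (SE 0.13, adjusted p = 4.27e-06). Of 29 other genes tested for a difference of responses, 0 passed, beside 0.00360% higher and 0.108% lower among all genes.

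Genes whose pattern was most like that of a member were ranked by Pearson's r of log2 levels over the 12 libraries, which fall into the same 4 groups for every gene, and are given as a description. C1R was nearest to PSME1, GBP1P1 and UBE2L6 (r = 0.993 each), and C1S to HLA-DRA (0.990), Z84484.1 (0.989) and BST2 (0.987). SERPING1 was nearest to the guanylate-binding protein gene GBP2 (0.985), IFNAR2 (0.973) and TRAFD1 (0.969), and CD55 to SHQ1 (0.989), ROR1 (0.986) and NAV1 (0.985). The nearest genes of C3 (AC133644.2, 0.922), CFB (PYHIN1, 0.950), CD46 (PARPBP, 0.938) and CD59 (DOHH, 0.975) had lower values. GBP2 differed between untreated lines by 6.35 (SE 0.19, adjusted p = 8.94e-09 by edgeR), and its IFNγ response differed by -4.98 (SE 0.25, adjusted p = 4.51e-08). For TRAFD1 these differences were 1.38 (SE 0.11, adjusted p = 4.11e-06) and -0.94 (SE 0.15, adjusted p = 0.017). For IFNAR2 they were 0.85 (SE 0.23, adjusted p = 0.0154) and -0.97 (SE 0.28, adjusted p = 0.453). These genes were picked for their likeness to SERPING1 over the same libraries, so such differences follow in part from the choice and are no separate support.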

How the data were processed

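Total RNA libraries (KAPA RNA HyperPrep with RiboErase) were sequenced by the authors, who aligned reads with STAR 2.7.11a (per the submitters' processing notes) to GRCh38 with Ensembl 103, removed Mycoplasma reads with Kraken and deposited raw htseq-count counts per gene. The strand setting is not given in the sources used here, so overlapping and antisense genes are uncertain. The 9 genes and all lists were chosen with earlier results of these data known. Genes with at least 10 counts in total over the libraries of a comparison were tested with edgeR 4.0.16 (quasi-likelihood, TMM) in R 4.3.3, each comparison on its own groups and the interaction on all 12 libraries, with Benjamini-Hochberg adjusted p under 0.05 over all genes tested. SE is the log2 fold change divided by the root of the F statistic. All 9 members are named. Of the 50 other complement genes, up to 4 called genes above 3 counts in both groups are named per comparison, by size, and some of these are not reported here. The 3 genes most alike by Pearson's r are ranked per member. Ratios of summed counts have exact 95% intervals for counting error only. Positions and lengths come from GENCODE 44 on GRCh38, promoters from RefSeq.

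Libraries held 4490684 to 39270042 counts. Within a line, deviations of same-numbered libraries correlated at 0.139 to 0.152 (HT1376 CT) and 0.180 to 0.267 (HT1376 FOXP3 KO), and each pair passed 0.1. A fit with the number as a block was therefore given there as an alternative. The main fits had no block, and calls and adjusted p-values are without it unless the block is named. Alternatives were other size factors, other filters on low counts, DESeq2 1.42.0, replicate blocks, the bias-adjusted deviance, 1 fit over all libraries, a fold threshold, leaving out each library and scaling by total counts. The main edgeR fits were tested on simulated data, and the fits with a replicate block were not. With 3 libraries against 3, an exact permutation test cannot go below p = 0.1, so none was used.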

Additional observations from a re-analysis of the deposited data

Results flagged for a closer look

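The IFNγ response of SERPING1 differed between the lines by -5.62 on the log2 scale (SE 0.29, HT1376 FOXP3 KO minus HT1376 CT), by the interaction test of edgeR (adjusted p = 4.51e-08). Groups of 3 libraries were not tested for outlying libraries.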

How the results depend on the processing

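The calls of SERPING1, C1R and C1S with IFNγ in both lines, of CFB with IFNγ in HT1376 CT, of SERPING1 and CD55 between untreated lines, of CD55 between the lines under IFNγ and of SERPING1 for the difference of responses kept direction and threshold under all alternatives, except that a threshold of 1 on the absolute log2 fold change left 1 member between untreated lines (SERPING1) and 1 under IFNγ (CD55). Leaving out 1 library gave 1 to 3 members between the lines under IFNγ. The replicate block gave 7 members with IFNγ in HT1376 CT, with or without the bias-adjusted deviance (7), and within each line it gave 2 for the difference of responses. Between lines, libraries of the same number correlated at 0.0407 to 0.136, and libraries of different numbers at -0.114 to 0.0706. The same-number values were all positive, but not every pair passed 0.1. The main fits between lines had no block, like those within a line. As an alternative there, the replicate block called CD59 untreated (-0.33, adjusted p = 0.00811, and 0.0126 with the bias-adjusted deviance) and CD46 under IFNγ (0.28, adjusted p = 0.0339), both in edgeR. Over all genes the block raised the calls from 1307 to 4530 with IFNγ in HT1376 CT, from 237 to 1334 in HT1376 FOXP3 KO and from 31 to 336 for the difference of responses. With no filter on low counts these were 2248, 355 and 294, and with DESeq2 1794, 342 and 151. C3 with IFNγ in HT1376 CT also passed with no filter (1.96, adjusted p = 4.66e-28) and with all 12 libraries in 1 fit (1.95, adjusted p = 0.0263), and CD55 there with no filter (-0.44, adjusted p = 0.00932).

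Differences that changed sign had not passed the threshold. C1S between untreated lines was -0.06 with the replicate block and -0.69 to 0.63 without 1 library. C3 under IFNγ was 0.13 with the block, 0.10 with the block and bias-adjusted deviance, 0.03 with total counts and -0.50 to 0.57 without 1 library. Without 1 library, C1R under IFNγ was -0.01 to 0.22, SERPING1 under IFNγ -0.01 to 0.13, CD55 with IFNγ in HT1376 FOXP3 KO -0.08 to 0.03, and the difference of responses -0.11 to 0.06 for CD59 and -0.86 to 0.17 for C3. CD46 in that test was -0.003 with DESeq2 size factors and -0.002 with DESeq2. The causes were not tested. Total-count scaling, added after the data were seen, called CD46 higher in HT1376 FOXP3 KO untreated (0.32, adjusted p = 0.0381) and under IFNγ (0.37, adjusted p = 0.0277). CFB in untreated libraries and CFI are limited by depth, and reads of both genes in exons shared with other genes are uncertain.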

Other observations

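Genes within 250 kb of SERPING1 were examined after its values were seen. Between untreated lines 15 neighbours were tested, and HT1376 FOXP3 KO had 0 of them higher and 5 of them lower, beside 14.0% higher and 18.2% lower among all genes. The neighbour UBE2L6, which encodes the conjugating enzyme for the interferon-induced modifier ISG15 and lies 29.1 kb away, differed between untreated lines by 0.18 (SE 0.14, adjusted p = 0.374 by edgeR). It rose with IFNγ by 2.88 (SE 0.14, adjusted p = 1.11e-07) in HT1376 CT and by 2.52 (SE 0.10, adjusted p = 1.73e-06) in HT1376 FOXP3 KO.

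Among the 10 IFNγ targets used as a check, GBP1 and GBP2 were higher in untreated HT1376 FOXP3 KO, by 2.94 (SE 0.20, adjusted p = 1.34e-06 by edgeR) and 6.35 (SE 0.19, adjusted p = 8.94e-09). TAP1 was lower by -0.81 (SE 0.17, adjusted p = 0.00442) and PSMB9 by -0.71 (SE 0.24, adjusted p = 0.0405). These were 2 higher and 2 lower of 9 tested, beside 14.0% and 18.2% of all genes. Under IFNγ, 1 of the 10 was higher in HT1376 FOXP3 KO and 7 were lower, beside 13.2% and 15.7% of all genes. Their median log2 difference was -1.20, and that of all genes 0.02. The IFNγ response of GBP1 was smaller in HT1376 FOXP3 KO by -3.08 (SE 0.21, adjusted p = 2.29e-06). Under IFNγ itself, GBP1 differed between the lines by -0.10 (SE 0.11, adjusted p = 0.543 by edgeR), beside 2.94 in untreated cells. For the difference of responses, 3 of the 10 passed, all in this direction, beside 0.108% of all genes.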
